A study of Mus musculus with 2 samples.

Results

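Luminal epithelial or tumour cells were the 105 of 2727 kept cells that carried RNA of the simple keratins and of the epithelial adhesion molecule EpCAM. A member had at least 10 unique molecular identifiers (UMIs, 1 per captured RNA molecule) over Krt8, Krt18 and Epcam, at most 5 over C1qa, C1qb and C1qc, under 2% of its UMIs in S100a8 and S100a9, and fewer than 20 over Col1a1, Col1a2 and Col3a1. Members were thus chosen by measured RNA, and their levels of these genes are a description. There were 30 members among 2135 cells of the Met-1 library (1.41%, 95% interval 0.95 to 2.0) and 75 among 592 cells of the PyMT library (12.7%, 10.1 to 15.6).

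Both libraries held EGFP-positive, tdTomato-negative cells sorted from breast tumours of C57BL/6 inAd-Chaser-mTmG mice. These mice carry Adiponectin-rtTA, TRE-Cre and the Rosa26 mT/mG reporter, so that doxycycline switches cells with an active adiponectin promoter, and all their descendants, from membrane tdTomato to membrane EGFP. The Met-1 library came from a tumour labelled a Met-1 xenograft, although the study's design text names implanted EO771 cells in its place. The PyMT library came from mice crossed to PyMT, the polyomavirus middle T antigen that induces mammary tumours, and tumour cells that arise in such a cross carry the reporter alleles themselves. The promoter of the PyMT transgene, the number of mice per library, their age and the doxycycline schedule are not given in the sources used here. RNA of tdTomato and of PyMT was not analysed here. With 1 library per group, differences are between these 2 libraries or between cells of 1 library, no test was possible, and every interval is a 95% interval that covers counting error only.

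The mammary epithelium has an inner luminal layer, marked by Krt8 and Krt18, and an outer basal layer, marked by Krt5, Krt14 and Trp63, whose contraction expels milk. Luminal cells include hormone-sensing cells with the receptors of estrogen, progesterone and prolactin, and secretory or alveolar cells, which depend on the transcription factor Elf5 and make caseins, Wap and alpha-lactalbumin. Adipocytes are mesenchymal cells and do not normally form this epithelium.

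Members were also described by genes that the rule did not use. Csn3, Wfdc18 and Lcn2 were marker genes listed with earlier results of these data known, so they are no independent check of the label. Csn3, the kappa-casein of milk, stood at 8363 CPM (the counts summed over cells, scaled to 1e6 UMIs) in the 26 Met-1 members with a Krt8 or Krt18 UMI and at 13775 CPM in PyMT members, against 68.6 and 1218 CPM in all other cells of the same library. Wfdc18, a secreted protein of the whey acidic family, was at 29281 and 8352 CPM against 162 and 1301 CPM. Lcn2, an iron-siderophore carrier secreted by epithelium, was at 10217 and 8737 CPM against 53.3 and 1372 CPM. The leukocyte surface gene Ptprc had 1.54 CPM (1 UMI) in those 26 Met-1 members and 8.36 CPM in PyMT members, against 589 and 255 CPM in other cells. Summed over cells, these markers set the members apart from the rest of each library, but not every single cell stood apart. In 14 PyMT members Csn3 was at most 629 CPM, below the 1218 CPM of that library's other cells. Among the 26 Met-1 members 7 had under 1000 CPM of Csn3. The other 4 Met-1 members were left out of these values.

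Those 4 Met-1 members had no Krt8 or Krt18 UMI. They passed on Epcam alone, with 10 to 19 UMIs, and had no defining luminal keratin. They carried 81 to 161 UMIs over 5 leukocyte genes (Ptprc, Tyrobp, Fcer1g, Laptm5 and Cd52), against at most 5 in each of the other 26 Met-1 members. In 3 of the 4 cells, Cd74, the invariant chain of MHC class II, had 292, 321 and 510 UMIs, and the other had 21 UMIs of the T cell receptor subunit Cd3e. By these markers the 4 cells do not carry the label, so Met-1 values below are for the other 26 cells, and counts are given for all 30 as well. Krt8 or Krt18 UMIs were present in 26 Met-1 and all 75 PyMT members, of which 7 and 14 had under 1000 CPM of Csn3. Among the 75 PyMT members 5 also had 10 or more UMIs (11 to 43) of the 5 leukocyte genes, 1 of them with 319 Cd74 and another with 7 Cd3e UMIs. Of these 5 cells, 2 had under 1000 CPM of Csn3. Results by EGFP that rest on the 5 cells are given without them too, and results by Csn3 are given with them only.

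Most members stood well inside the keratin and Epcam limit. Some stood at or near the other limits. PyMT members reached 5 C1q UMIs, the most allowed, and a Met-1 member had 582 S100a8 and S100a9 UMIs of 33794. The median of the summed Krt8, Krt18 and Epcam UMIs was 33 (range 10 to 682) in all 30 Met-1 members and 46 (12 to 265) in PyMT members, at a median depth of 13340 and 17508 UMIs per cell. In the Met-1 library 7 members had 10 to 14 of these UMIs and 24 cells that met the other limits had 5 to 9. Csn3 was present in 3 of those 7 and in 3 of those 24. In the PyMT library 4 members had 10 to 14 UMIs and 2 cells had 5 to 9, all with Csn3. The C1q limit left out 15 PyMT cells and 2 Met-1 cells with enough keratin and Epcam UMIs. All 15 of the PyMT cells had Csn3 UMIs and none of the 2 Met-1 cells did. The 75 PyMT members held 30.5% of that library's kept UMIs, and Csn3, Wfdc18 and Lcn2 were all above 1000 CPM in its other cells, so free epithelial RNA and doublets were not told apart from expression there.

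Defining adipocyte genes were at or near 0. Adipoq, which encodes adiponectin and whose promoter drives the label, had 0 UMIs in members of both libraries, which allows up to 4.24 CPM over the 30 Met-1 members and 2.28 CPM over PyMT members. Cidec, of the lipid droplet coat, and Fabp4, a fatty acid carrier, also had 0 UMIs in both. Plin1, another droplet protein, had 1 and 2 UMIs, and Pparg, the regulator of adipocyte differentiation, 1 and 1. Of the 20 adipocyte genes listed, 10 had 0 UMIs in each library. The list as a whole summed to 225 CPM in all 30 Met-1 members and 250 CPM in PyMT members, with 5 genes at 20 or more UMIs on either side, among them Agpat2, an enzyme of triglyceride synthesis (27 and 104 UMIs), and Acsl1, a fatty acyl-CoA synthetase (38 and 21 UMIs).

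EGFP RNA, the label of the adiponectin lineage, was spread unevenly over the members. In the PyMT library 27 members had 0 EGFP UMIs, 12 had 1, 2 had 2 or 3, none had 4 to 6, and 34 had 7 to 168 with a median of 72.5. PyMT members therefore fell into a group of 34 at 4303 CPM and a group of 41 at 23 CPM, with a gap in UMIs between them and like median depths of 16446 and 17917 UMIs. In CPM per cell the gap was narrow, with 149 the highest of the 41 and 245 the lowest of the 34. Cells with 7, 10 and 11 EGFP UMIs stood at 245, 294 and 522 CPM, and the next at 1278 CPM. Among the 26 keratin-positive Met-1 members the highest value was 13 EGFP UMIs, and the 75 EGFP UMIs together gave 116 CPM. The 4 Met-1 cells without keratin RNA held 313 of the library's 388 member EGFP UMIs, at 61, 69, 74 and 109 per cell. At least 5 EGFP UMIs were seen in 6 of the 26 keratin-positive Met-1 members (5 to 13 UMIs) and in 34 of the 75 PyMT members. Those 6 Met-1 cells were deep, with 24758 to 88260 UMIs. They stood at 81.8 to 242 CPM of EGFP, all below the lowest of the 34 PyMT cells at 245 CPM.

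**Figure D1:**
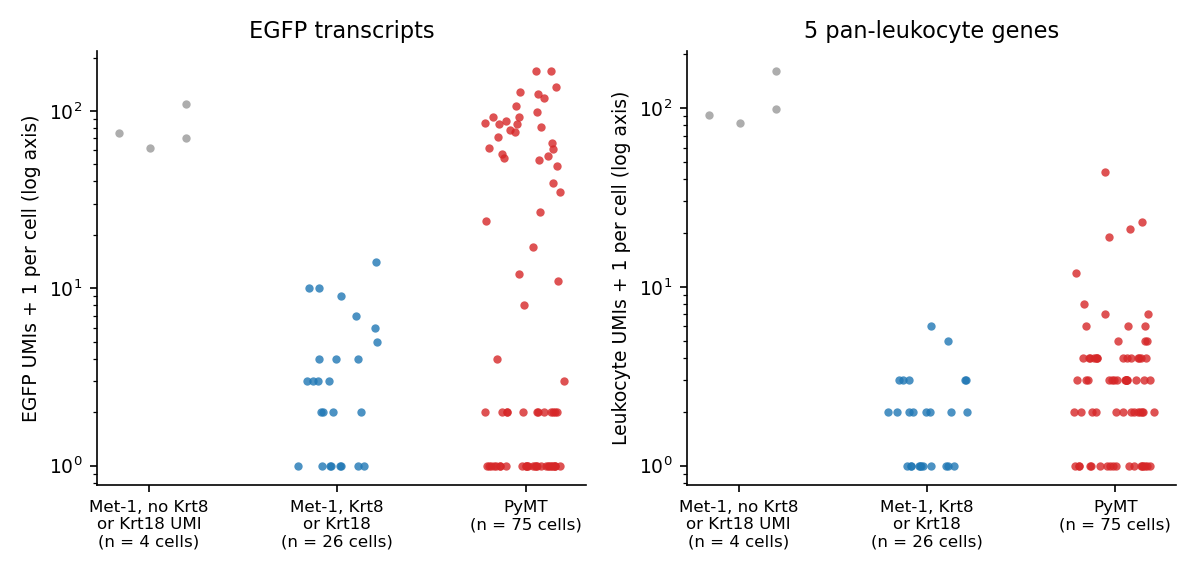
UMIs per cell (vertical axes, log scale of UMIs + 1) of EGFP at left and of the 5 leukocyte genes at right, with 1 point per member cell, for Met-1 members without and with Krt8 or Krt18 UMIs and for PyMT members. The 34 PyMT cells with 7 or more EGFP UMIs stand above a gap, and the 4 Met-1 cells without keratin RNA are the highest of that library in both panels.

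After each cell was thinned to 1000 UMIs, an EGFP UMI remained in 33 of 75 PyMT members (44.0%, 32.5 to 55.9), against 48 of 75 (64.0%, 52.1 to 74.8) without thinning. In keratin-positive Met-1 members it remained in 2 of 25 (8.0%, 0.984 to 26), against 18 of 26 (69.2%) without thinning. Over all Met-1 members these values were 6 of 29 (20.7%) and 22 of 30 (73.3%). B cells, which are not derived from adipocytes, carried an EGFP UMI at 1000 UMIs in 1 of 21 PyMT cells (4.76%, and 3 of 21 or 14.3% without thinning, median depth 2262 UMIs). Some PyMT classes lay above the members, with a UMI at this depth in 116 of 118 neutrophils (98.3%) and 155 of 206 C1q-positive macrophages (75.2%). In all cells other than members it was 367 of 493 (74.4%). Without thinning, 20 of 41 PyMT T cells and 7 of 10 collagen-rich cells had an EGFP UMI, at median depths of 3947 and 12337 UMIs. At least 5 were seen in 16 and 2 of these, against 34 of 75 members. In the Met-1 library 213 of 236 B cells (90.3%) carried an EGFP UMI at 1000 UMIs. Without thinning 224 of 237 (94.5%) did, at a median depth of 3596 UMIs. The thinned share in PyMT members with at least 5 EGFP UMIs was 33 of 34, which the split itself fixes, and in the other 41 it was 0, which allows up to 7.32% of cells with a UMI. The thinned share in keratin-positive Met-1 members lay below that of the same library's B cells. Of those 26 members 8 had no EGFP UMI at all although the sort was for EGFP protein. Some of the 26 had much alike counts. Those with 30476, 29480 and 30295 CPM of Csn3 had 8, 7 and 8 Lalba, 16, 19 and 22 Saa1, and 0, 0 and 1 EGFP UMIs. Those with 6101 and 6028 CPM of Csn3 had 37 and 35 Ltf UMIs. Whether such barcodes were separate cells was not tested.

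The members of the 2 tumours were compared by CPM of summed counts, and a gene was counted as apart when CPM + 10 differed at least 2-fold and either side had 50 UMIs. Sums weight cells by depth, which ranged from 788 to 88260 UMIs over the 26 keratin-positive Met-1 members (median 11839, upper quartile 33776). A few deep cells can thus set their CPM, and the intervals do not cover differences between cells. With all 30 Met-1 members, 239 of 3740 genes (6.39%) lay higher in the Met-1 cells and 288 (7.7%) lay lower. Higher genes were 45.4% of the genes apart, and 35.3% (191 higher, 350 lower) when values were centred on genes with 50 UMIs on both sides, whose median log2 ratio was 0.10 (0.12 for the 26 keratin-positive members). Without the 4 cells lacking keratin RNA, 229 of 3706 (6.18%) were higher and 306 (8.26%) lower, and 196 of the higher and 270 of the lower genes were called with all 30 as well. The median log2 ratio over all compared genes was -0.08. C1q-positive macrophages of the same 2 libraries differed in 479 of 8760 genes upwards (5.47%) and 230 (2.63%) downwards, and their log2 ratio is given beside genes that moved in both. Those macrophages included the PyMT cells with Csn3 UMIs left out above, so for epithelial genes they are no clean reference.

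Milk and alveolar genes divided between the libraries. Csn3 ranged over Met-1 cells from 0 to 34564 CPM (median 5970) and over PyMT cells from 0 to 74219 (median 11571), so the ranges overlapped throughout, and the summed level was 1.65-fold lower in Met-1. Lalba, the alpha-lactalbumin of lactose synthesis, was at 184 against 658 CPM, 3.58-fold lower in Met-1, and Csn1s1, alpha-casein, at 15.4 against 191 CPM, 12.4-fold lower (6.63 to 26.2). Trf, the iron carrier transferrin, was at 3246 against 7407 CPM. In the other direction Wfdc18 ranged from 415 to 76356 CPM (median 16987) in Met-1 cells and from 0 to 37763 (median 5152) in PyMT cells, and was 3.51-fold higher in Met-1 (3.42 to 3.59). Ltf, the iron-binding milk protein lactoferrin, was at 673 against 90.4 CPM, 7.45-fold higher (6.07 to 9.20), with a UMI in 15 of 26 Met-1 cells and 15 of 75 PyMT cells. Single deep Met-1 cells held 145 and 107 of its UMIs. In macrophages the log2 ratio of Ltf was -2.53, the opposite direction. Csn2, beta-casein, had 0 and 2 UMIs, and Wap was at 32.4 against 79.0 CPM. Of 17 measured milk genes (20 UMIs on either side) 5 stood 2-fold or more above PyMT and 8 below, with a median log2 ratio of -0.72. At 1000 UMIs, 4 of 25 keratin-positive Met-1 members (16%, 4.54 to 36.1) and 19 of 75 PyMT members (25.3%) had a UMI of a casein other than Csn3, of Wap or of Lalba, against 13 of 26 and 61.3% without thinning. The median depth of those 26 cells was 11839 UMIs. Other cells of the same libraries, at a median depth of 7706 and 2848 UMIs, had one in 0.0982% and 2.23% at 1000 UMIs.

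Genes of luminal progenitors and alveolar cells went both ways. Kit, the stem cell factor receptor of luminal progenitors, was at 187 against 43.3 CPM, 4.32-fold higher (3.12 to 6.02), and was found in 17 of 26 Met-1 and 27 of 75 PyMT cells. Pigr, which carries antibodies across the epithelium into milk, was at 185 against 31.9 CPM, and the mucin Muc15 at 224 against 71.4 CPM. Elf5 differed little, at 198 against 156 CPM (1.27-fold, 1.01 to 1.59), and Aldh1a3, a retinaldehyde dehydrogenase, had 27 and 8 UMIs. Over the alveolar list 6 of 24 measured genes stood above the 2-fold limit in Met-1 and 7 below it, with a median of 0.12. The transcription factor Sox9 was at 527 against 185 CPM and Xbp1, which drives the secretory apparatus, at 1296 against 442 CPM. In the list of tumour and luminal transcription factors and receptors 5 of 25 genes were higher and 1 lower (median 0.37).

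Several luminal keratins and junction genes were higher in Met-1. Krt7 was at 113 against 34.2 CPM, Krt19 at 315 against 108 CPM (17 of 26 and 14 of 75 cells), and Tjp1, the scaffold of tight junctions, at 81.9 against 16.7 CPM, 4.90-fold apart. Claudin 4 (Cldn4), a tight junction protein, was at 479 against 228 CPM. By the mean of per-cell CPM over all 30 Met-1 members Krt19 had a log2 ratio of -0.00085, so over all 30 its difference held for summed counts only. The per-cell mean was not taken over the 26 cells alone. Of 37 measured keratin and junction genes 11 were higher and 1 lower, with a median of 0.49. With all 30 Met-1 members 8 were higher and 3 lower.

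Hormone-sensing genes were scarce in both. Prlr, the prolactin receptor, was at 86.5 CPM in the Met-1 cells, against 79.0 CPM in the PyMT cells (1.09-fold, 0.776 to 1.53). Esr1, the estrogen receptor, had 1 and 6 UMIs, and Pgr, the progesterone receptor, 0 and 2. Foxa1, a cofactor of the estrogen receptor, had 0 UMIs in Met-1 and 23 in PyMT, at least 3.77-fold lower against a floor of 3 counts over the group. At 1000 UMIs, 3 of 25 keratin-positive Met-1 members (12%, 2.55 to 31.2) and 4 of 75 PyMT members (5.33%) had a UMI of any of 6 such genes, and 61.5% and 50.7% did without thinning. In other cells the shares at 1000 UMIs were 0.933% and 1.42%, and a difference between the members' thinned shares was not detectable at this depth.

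Basal genes were lower in the Met-1 cells, but their counts came from few cells. Krt14 had 13 UMIs over 7 of 26 Met-1 cells and 221 UMIs over 24 of 75 PyMT cells, 8.36-fold lower (4.79 to 16). A single PyMT cell with 1 EGFP UMI held 91 of those 221 UMIs, all 49 Krt5, 54 of 59 Krt17 and 25 of 27 Acta2 UMIs, all genes known from myoepithelial cells. Without that cell Krt14 was at 20.1 against 101 CPM, 5.01-fold lower in Met-1 (2.83 to 9.66). Trp63, the basal lineage regulator, had 1 and 14 UMIs. At 1000 UMIs a basal keratin was seen in 0 of 25 keratin-positive Met-1 members, which allows up to 12%, and in 3 of 75 PyMT members (4.0%), against 26.9% and 32.0% without thinning and 0.0491% and 1.01% in other cells at 1000 UMIs. Of 13 measured basal genes 7 lay at least 2-fold below PyMT and 0 above (median -1.06). Without that cell 4 of 10 were lower and 0 higher (median -0.59), beside 224 of 3661 genes (6.12%) higher and 297 (8.11%) lower in all.

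**Figure D2:**
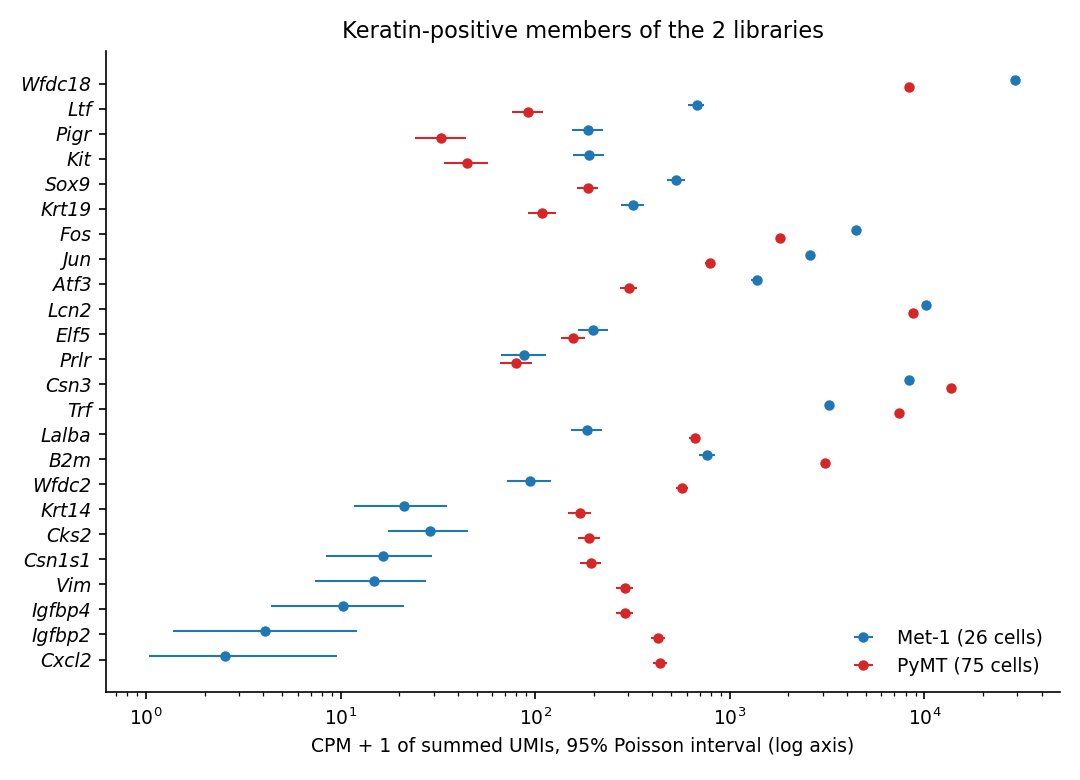
CPM + 1 of named genes (horizontal log axis) in keratin-positive Met-1 members (26 cells) and PyMT members (75 cells), from counts summed over cells, with exact Poisson 95% intervals as bars. Wfdc18, Ltf and Kit lie higher in Met-1, and Igfbp2, Cxcl2 and Vim lie higher in PyMT.

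Among the genes lowest in Met-1 were chemokines, growth factor binding proteins and matrix genes. Cxcl2, a neutrophil attractant, had 1 UMI in 26 Met-1 cells and 573 UMIs over 50 of 75 PyMT cells, a ratio of 282 with an interval of 50.4 to 11152, and in macrophages its log2 ratio was -1.28. Igfbp2, which binds insulin-like growth factors, had 2 UMIs in 1 Met-1 cell and 563 over 44 PyMT cells, 138-fold lower (38.2 to 1146), with a macrophage log2 ratio of -2.60. Igfbp4 was at 9.27 against 287 CPM, 31.0-fold lower (14.1 to 85.0), and -0.43 in macrophages. Ptn, the growth factor pleiotrophin, had 1 Met-1 UMI against 125 CPM in PyMT. Vim, the mesenchymal filament protein vimentin, was at 13.9 against 286 CPM, 20.6-fold lower (10.7 to 45.4), and 2.50-fold lower with all 30 Met-1 members. The basement membrane collagen Col4a1 was at 3.09 against 90.4 CPM and the matrix proteoglycan Bgn at 15.4 against 146 CPM. Csf3, a granulocyte growth factor, had 0 and 63 UMIs, at least 10.3-fold lower. Of 18 chemokine and cytokine genes 0 were higher and 10 lower (median -1.30), and 1 and 8 with all 30 members.

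Proliferation genes were lower in Met-1 as well. Cks2, a cyclin-dependent kinase partner, was at 27.8 against 188 CPM, 6.78-fold lower (4.2 to 11.6), in 6 of 26 and 58 of 75 cells. Birc5, the mitotic protein survivin, had 1 Met-1 UMI against 55.5 CPM. Summed over the G2 and M phase list, the level was 80.3 against 577 CPM, and 7 of 9 measured genes were lower and 0 higher (median -1.54), with 4 of 11 S phase genes lower (median -0.63). At 1000 UMIs, 2 or more such UMIs were seen in 1 of 25 keratin-positive Met-1 members (4.0%, 0.101 to 20.4) and 9 of 75 PyMT members (12%), against 34.6% and 66.7% without thinning. The thinned shares rest on few cells, and their difference was not detectable at this depth.

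B2m and Tapbp stood at least 2-fold lower among the MHC class I genes. B2m, the light chain of class I molecules, ranged from 0 to 7070 CPM (median 525) in Met-1 and from 76.0 to 33058 CPM (median 2720) in PyMT, 4.06-fold lower when summed (3.70 to 4.46), with a macrophage log2 ratio of -0.82. Tapbp, the tapasin of peptide loading, was at 88.0 against 194 CPM. Over 16 class I and peptide loading genes 0 were higher and these 2 lower, with a median of -0.02. Interferon response genes had a median of 0.14, with 1 of 20 higher. MHC class II genes depended on the 4 keratin-negative cells, with 6 of 7 measured genes above PyMT with them and 6 of 6 below it without them.

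Stress and metabolic genes went in both directions, and several did so in macrophages too. Atf3, a stress-induced transcription factor, was at 1376 against 302 CPM, 4.56-fold higher in Met-1 (macrophage log2 ratio 1.84), and Jun at 2593 against 787 CPM (1.80 in macrophages). The heat shock protein Hspa1b was at 514 against 89.6 CPM (2.59 in macrophages), and Fos at 4428 against 1811 CPM (0.76). Lars2, the mitochondrial leucyl-tRNA synthetase, was at 178 against 8.36 CPM, 21.3-fold higher (11.4 to 43.8), in 21 of 26 and 11 of 75 cells, and 2.77 in macrophages. Of 24 immediate early and heat shock genes 8 were higher and 1 lower (median 0.70). Hypoxia and glycolysis genes were mostly lower in Met-1 where apart, with 6 of 26 lower, 1 higher and a median of -0.50. Car9, the hypoxia-induced carbonic anhydrase, was at 9.27 against 68.4 CPM, and Egln3, an oxygen-sensing hydroxylase, at 61.8 against 187 CPM. Atf3, Jun, Hspa1b and Lars2 were thus higher in both cell types of the Met-1 library, and what sets this was not tested.

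Within the PyMT library the members with and without EGFP RNA were compared next. With at least 1 EGFP UMI against 0 (48 and 27 cells) 68 of 2475 genes (2.75%) were higher and 33 (1.33%) lower in cells with EGFP. With the split at the gap, 5 or more against fewer (34 and 41 cells), 52 of 2241 (2.32%) were higher and 84 (3.75%) lower, and the median over all genes was -0.10. The second split was added after the values were seen and is used below, since 14 cells with 1 to 3 EGFP UMIs join the EGFP group in the first. The 5 PyMT members with 10 or more leukocyte UMIs were all in the EGFP-high group, and without them the counts were 48 (2.19%) and 95 (4.33%) of 2194. Summed pan-leukocyte genes stood at 523 against 225 CPM and neutrophil genes at 653 against 289 CPM. Without those 5 cells they stood at 234 against 225 CPM and at 516 against 289 CPM.

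Summed over cells, EGFP-high cells had less RNA of several secretory genes. Csn3 ranged from 0 to 74219 CPM (median 6253) in EGFP-high cells and from 110 to 50288 CPM (median 12856) in EGFP-low cells, and its summed level was 2.18-fold lower in the former. In the 12 EGFP-high cells with under 1000 CPM of Csn3 the median was 179 CPM, and in the other 22 it was 19646 CPM. That was above the median of 13657 CPM in the 39 EGFP-low cells with 1000 CPM or more. Over all EGFP-high cells Wfdc18 was 2.16-fold lower at 5050 against 10919 CPM and Lcn2 1.51-fold lower at 6775 against 10262 CPM. Lalba was at 195 against 1018 CPM, 5.23-fold lower, and was found in 8 of 34 and 25 of 41 cells. Car6, a secreted carbonic anhydrase, was at 22.6 against 312 CPM, 13.8-fold lower (7.92 to 26.3), and Arg1, the urea cycle enzyme arginase, at 12.2 against 208 CPM. Over 17 milk genes 2 were higher and 4 lower (median -0.51). The acute phase genes Saa1 (39.96 against 1185 CPM) and Saa2 (17.4 against 872 CPM) were high in few cells, since a single EGFP-negative cell held 503 Saa1 and 459 Saa2 UMIs and another with 3 EGFP UMIs held 286 and 168.

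Genes higher in EGFP-high cells included Slc9a3r1, a scaffold protein under the apical membrane. It ranged from 0 to 3447 CPM (median 736) in EGFP-high cells and from 0 to 882 CPM (median 142) in EGFP-low cells, a summed level of 1086 against 193 CPM, 5.62-fold higher (4.68 to 6.79). Cst3, the protease inhibitor cystatin C, was at 2800 against 676 CPM, 4.14-fold higher (3.74 to 4.59), and stayed higher among Csn3-high cells at 2653 against 647 CPM. The small heat shock protein Cryab was at 136 against 16.2 CPM and the collagen chaperone Serpinh1 at 151 against 25.7 CPM. Ccl5, a chemokine made by T cells among others, was at 123 against 13.5 CPM, beside T and NK cell genes at 88.6 against 14.9 CPM. MHC class II genes were higher in 4 of 5 measured, and 1 EGFP-high cell held 319 Cd74 UMIs. Neither difference was present without the 5 cells with 10 or more leukocyte UMIs, where Ccl5 was at 12.9 against 13.5 CPM and T and NK cell genes at 10.8 against 14.9 CPM. There 0 of 5 MHC class II genes were higher and 0 lower (median -0.05, 473 against 496 CPM in sum).

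Basal genes by EGFP turned on the single cell with Krt5 UMIs, which is EGFP-low. Krt14 was at 198 against 144 CPM, in 15 of 34 EGFP-high and 9 of 41 EGFP-low cells, and that cell held 91 of the 107 EGFP-low UMIs. Without it Krt14 was at 198 against 22.3 CPM, 8.88-fold higher in EGFP-high cells (5.24 to 16.1). Krt5 had 0 and 49 UMIs and Krt17 1 and 58, nearly all in the same cell. Of 12 basal genes 1 was higher and 6 lower (median -0.50), while with 1 EGFP UMI as the limit, which moves that cell to the EGFP side, 6 were higher and 1 lower (median 0.89). Without the cell 3 of 9 were higher and 3 lower (median 0.19), beside 56 of 2187 genes (2.56%) higher and 79 (3.61%) lower in all. Junction genes (2 of 27 higher, 0 lower, median -0.04) had a median near that of all genes. Alveolar genes went both ways, with 5 of 22 higher and 3 lower (median -0.17). Over all genes 52 of 2241 (2.32%) were higher and 84 (3.75%) lower. The direction of the basal list thus differed between the splits, and it had none without that cell.

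Csn3 divided the EGFP-high cells further. No PyMT member lay between 629 and 1549 CPM of Csn3, and 14 lay below, a split chosen after the values were seen. Of these Csn3-low cells 12 were among the 34 EGFP-high members and 2 among the 41 EGFP-low members. At least 2 Krt14 UMIs were seen in 9 of the 12 and in 4 of the 22 other EGFP-high cells, and 5 of the 12 and 2 of the 22 had 20 or more UMIs over the G2 and M phase genes. The 12 were deeper, with a median of 20630 UMIs per cell against 10854. At 1000 UMIs a basal keratin was seen in 0 of the 12, which allows up to 25% of cells with a UMI, and in 1 of the 22, and 2 or more G2 and M phase UMIs in 5 of the 12 and 2 of the 22, so a difference in the share with a basal keratin was not detectable at this depth.

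**Figure D3:**
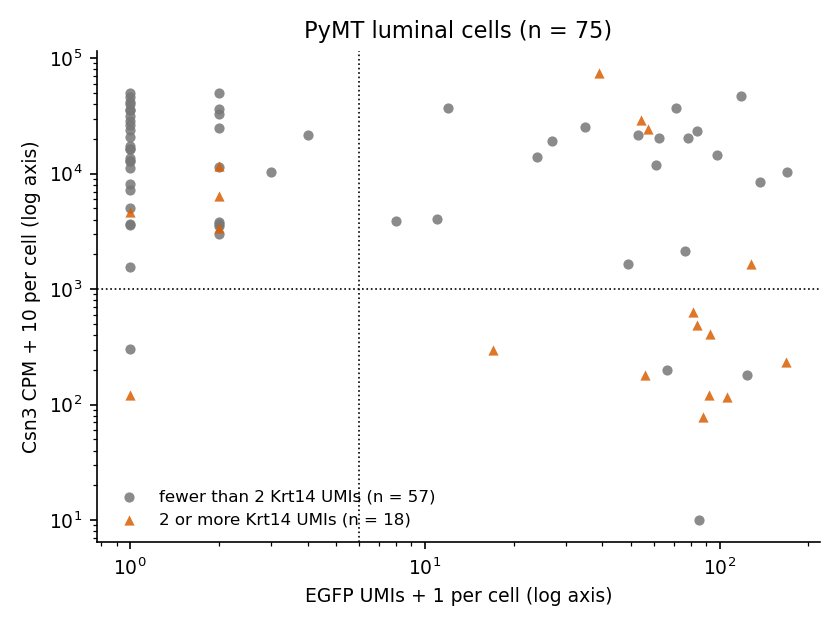
EGFP UMIs + 1 (horizontal log axis) and Csn3 CPM + 10 (vertical log axis) of each of the 75 PyMT members, with the 18 cells that have at least 2 Krt14 UMIs as triangles and dotted lines at both splits. Of the 14 cells with low Csn3, 12 lie on the EGFP-high side and 10 are triangles.

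Between the 14 Csn3-low and 61 Csn3-high PyMT members 62 of 2946 genes (2.1%) were higher in the Csn3-low cells and 369 (12.5%) lower. Csn3 itself chose the cells, so its level is no result. Lalba was at 10.5 against 838 CPM, Wfdc18 at 992 against 10397 CPM (10.5-fold lower, 9.31 to 11.8), and Lcn2 at 3630 against 10156 CPM (2.80-fold lower). Krt19 had 0 UMIs against 142, at least 13.2-fold lower, and Epcam, which the rule used, was at 384 against 973 CPM. Of 33 keratin and junction genes 0 were higher and 12 lower, and of 17 milk genes 2 were higher and 10 lower. Secreted and simple epithelial genes were thus lower together in the Csn3-low cells.

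A smaller set was higher in the Csn3-low cells. Krt14 ranged over them from 0 to 1044 CPM (median 328) and was 3.20-fold higher in sum, at 363 against 114 CPM, although Krt5 had no UMI in them. The single cell with Krt5 UMIs held 91 of the 117 Krt14 UMIs of the Csn3-high cells, and without it the values were 363 against 25.8 CPM (14.1-fold, 9.08 to 22.5). Igfbp4 was at 744 against 160 CPM, 4.65-fold higher (3.77 to 5.73), and Ptn at 294 against 77.7 CPM. Csn1s1, alpha-casein, was 2.29-fold higher at 342 against 150 CPM, the opposite direction to Lalba, with 44 of 98 UMIs in 1 cell. Glycam1, a mucin-like protein of milk and of lymph node vessels, had 26 UMIs over 6 of 14 cells and 0 in the other 61, at least 31.2-fold higher. Cells with 22 and 43 leukocyte UMIs held 7 and 2 of these 26. Pdpn, the membrane glycoprotein podoplanin, had 32 UMIs over 7 of 14 cells and 5 UMIs over 3 of 61. Of 7 S phase genes 4 were higher (median 1.16), among them Rrm2, a subunit of ribonucleotide reductase, with 20 of its 33 UMIs in 1 cell. Fatty acid and cholesterol synthesis genes were higher in 9 of 21, lower in 2 (median 0.48). At 1000 UMIs, 5 of 14 Csn3-low cells (35.7%) had 2 or more G2 and M phase UMIs, beside 9 of all 75 PyMT members (12%). Without thinning, single cells held many such UMIs, up to 88 in a Csn3-low cell and 113 in a Csn3-high cell.

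Interferon response and MHC class I genes followed the same division. B2m ranged from 76.0 to 7025 CPM (median 713) in EGFP-high and from 148 to 33058 CPM (median 3675) in EGFP-low cells, and was 3.07-fold lower in sum (2.84 to 3.31). Isg15, a ubiquitin-like protein induced by interferon, was at 191 against 378 CPM, Irf7, a regulator of interferon genes, at 181 against 402 CPM, and Bst2, the tetherin of virus particles, at 238 against 682 CPM. Ifit3, an antiviral RNA-binding complex member, was at 20.8 against 79.7 CPM. Of 20 interferon response genes 0 were higher and 7 lower (median -0.89), and of 14 class I genes 0 and 2 (median -0.70). Within Csn3-high members the interferon counts were 0 and 2 of 19 (median -0.33) and the class I counts 0 and 0 of 14 (median -0.30). Over all genes 25 of 2104 (1.19%) were higher and 70 (3.33%) lower (median -0.12), at a minimum of 50 UMIs against 20 for list genes. Between Csn3-low and Csn3-high cells 15 of 20 interferon genes and 8 of 15 class I genes were lower, with medians of -1.51 and -1.15. Over the 12 cells with high EGFP and low Csn3, B2m was at 378 CPM (112 to 902), below the median of the other EGFP-high cells (2411 CPM) in every cell. The difference in these genes by EGFP was thus smaller once Csn3-low cells were left out, and what sets it was not tested.

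**Figure D4:**
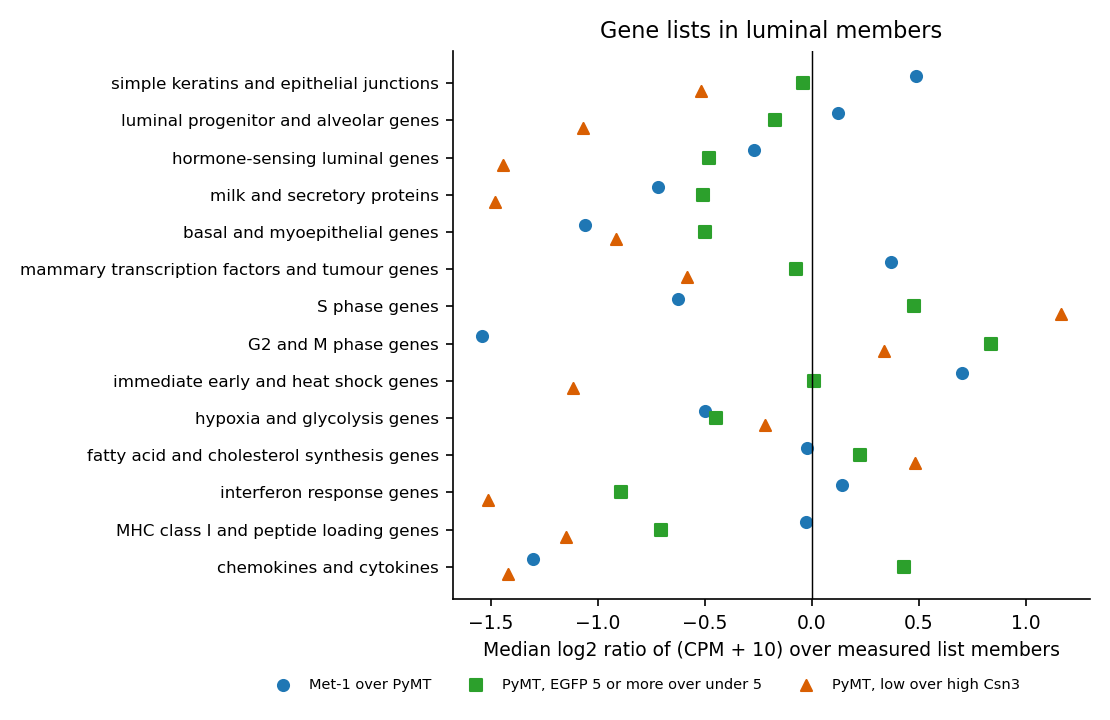
Median log2 ratio of CPM + 10 over the measured genes of 14 lists (horizontal axis), for keratin-positive Met-1 over PyMT members (circles), EGFP-high over EGFP-low PyMT members (squares) and Csn3-low over Csn3-high PyMT members (triangles). Interferon response genes lie at 0.14, -0.89 and -1.51 in this order, and G2 and M phase genes at -1.54, 0.84 and 0.34.

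Promoters of 3 of these genes are shown because they hold the interferon-stimulated response element core GAAANNGAAA (N is any base, both strands searched, TTTCNNTTTC on the strand shown), in capitals in the 250 bases before the start of transcription, taken from RefSeq on GRCm38.p6. They are B2m (chr2:122147437-122147686, + strand, 1 match), Isg15 (chr4:156200819-156201068, - strand, 3 overlapping matches) and Ifit3 (chr19:34583279-34583528, + strand, 2 matches), each written 5′ to 3′ along the gene.
B2m: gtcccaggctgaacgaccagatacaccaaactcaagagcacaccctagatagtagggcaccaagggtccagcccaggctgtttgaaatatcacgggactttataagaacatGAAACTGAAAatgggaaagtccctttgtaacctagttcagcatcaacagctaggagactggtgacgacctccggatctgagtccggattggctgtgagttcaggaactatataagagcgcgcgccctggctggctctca
Isg15: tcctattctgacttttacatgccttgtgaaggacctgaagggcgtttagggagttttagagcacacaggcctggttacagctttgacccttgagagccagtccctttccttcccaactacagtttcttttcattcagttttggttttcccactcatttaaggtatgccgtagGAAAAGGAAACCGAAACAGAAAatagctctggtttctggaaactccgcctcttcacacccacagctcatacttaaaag
Ifit3: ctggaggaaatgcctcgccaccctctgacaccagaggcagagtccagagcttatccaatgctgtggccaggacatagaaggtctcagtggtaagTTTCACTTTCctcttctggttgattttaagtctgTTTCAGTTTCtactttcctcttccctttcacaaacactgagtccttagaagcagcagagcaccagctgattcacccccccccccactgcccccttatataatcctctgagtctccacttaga

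Of 32851 mouse promoters of the same length 978 (2.98%) held the motif, as did 10 of 20 on the interferon list (50%) and 3 of 16 on the class I list (18.8%). A match describes the letters and shows no binding.

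Many genes higher in EGFP-high cells lay on 1 chromosome end. Slc9a3r1 (chr11:115163341-115181181, + strand), the mitochondrial ribosome genes Mrpl58 (chr11:115403752-115412674, +) and Mrps7 (chr11:115603925-115608036, +), Trim47 (chr11:116105752-116127210, -), Birc5 (chr11:117849251-117855743, +), the carbonyl reductase Cbr2 (chr11:120729489-120732114, -) and fatty acid synthase Fasn (chr11:120805846-120824547, -) all lie from 115 Mb of chromosome 11 on, on GRCm38. Mrps7 was at 243 against 66.2 CPM, Trim47, a ubiquitin ligase family member, at 130 against 25.7, Birc5 at 90.3 against 28.4, Cbr2 at 101 against 12.2 and Fasn at 97.3 against 32.4. Sectm1b (chr11:121053458-121063569, -), in the same stretch, went the other way, at 35.7 CPM in cells with an EGFP UMI and 118 CPM in cells without.

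Looking at position was decided after these genes were seen. Of 81 genes with at least 30 UMIs in this segment, 69 (85.2%) had a log2 ratio above 0 between EGFP-high and EGFP-low cells, 26 (32.1%) were at least 2-fold higher and the median was 0.63. The other 383 genes of chromosome 11 had a median of 0.00 with 2.35% at least 2-fold higher, and all 5207 genes outside the segment, these included, a median of -0.02 with 1.88%. Among 124 windows of 5 Mb with at least 15 genes, the windows from 115 and from 120 Mb of chromosome 11 had the highest medians, 0.66 and 0.57, the third highest was 0.25 and the lowest -0.48. Within Csn3-high members the segment's median was 0.47 over 70 genes, with 7 (10.0%) at least 2-fold higher. Between Csn3-low and Csn3-high members it was 0.56 with 24 genes (29.6%) at least 2-fold higher. Between keratin-positive Met-1 and PyMT members it was -0.21, and between macrophages -0.02. Over whole chromosomes, chromosome 2 had the lowest median between EGFP-high and EGFP-low cells, -0.19 over 450 genes, and chromosome 11 the highest, 0.09. Chromosome 2 was also lowest within Csn3-high members (-0.24) and between keratin-positive Met-1 and PyMT members (-0.22 over 539 genes). Its median was -0.13 between Csn3-low and Csn3-high members and 0.07 between macrophages. B2m and Lcn2 lie on chromosome 2.

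**Figure D5:**
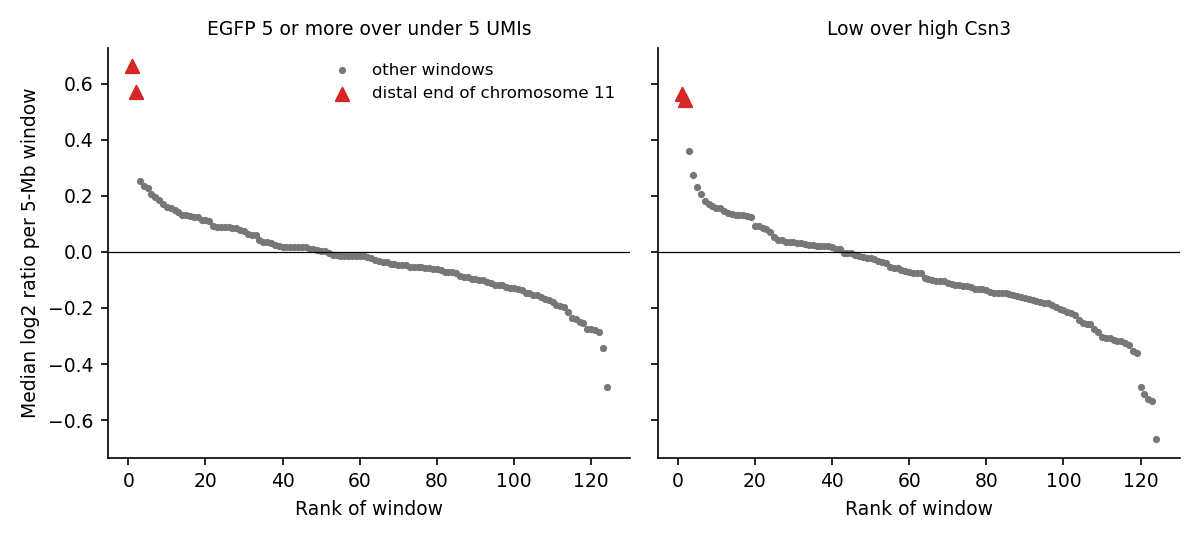
Median log2 ratio per window of 5 Mb (vertical axis) against the rank of the window among 124 (horizontal axis), for EGFP-high over EGFP-low members at left and Csn3-low over Csn3-high members at right. The 2 windows at the end of chromosome 11 (triangles) rank first at left, at 0.66 and 0.57, and at right, at 0.56 and 0.54, where the third highest is 0.36.

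Per cell, the share of UMIs from the 238 gene rows of this segment had a median of 1.86% (0.812 to 3.89) in EGFP-high members and 1.47% (0.962 to 2.92) in EGFP-low members. At least 2% was reached by 16 of 34 EGFP-high and 3 of 41 EGFP-low cells, and by 11 of the 12 cells with high EGFP and low Csn3, whose median was 2.26%. The ranges overlapped, and C1q-positive macrophages of the library had a median of 1.24% and neutrophils 1.78%, so this share also differs between cell types. DNA copy number was not measured.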

How the data were processed

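Single-cell RNA was measured in 2 10x Genomics libraries, 1 per tumour. The deposited UMI counts per gene and barcode were made by the authors with Cell Ranger 3.1.0 on mm10, per the submitters' processing notes; the sources used here do not give the annotation release. The Met-1 file held 2451 barcodes and 20786371 UMIs, the PyMT file 619 and 4359066. They shared 0 barcodes. Barcodes with at least 500 UMIs and at most 10% mitochondrial UMIs were kept; their median depth was 7749 and 3462 UMIs. Doublets were not removed; Scrublet (scanpy 1.11.5) called 20 Met-1 and 5 PyMT cells, 0 and 1 of them members.

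Counts were summed over cells and given as CPM. Log2 ratios used CPM + 10, fold changes used CPM without it. List genes were counted at 20 UMIs on either side, and shares over all genes at 50. Intervals at 95% are exact (Poisson, Clopper-Pearson, conditional binomial; scipy 1.17.1). A gene at 0 was set against a floor of 3 counts over the group. Cells were thinned to 1000 UMIs with a fixed seed. Gene positions are from GENCODE on GRCm38, matched by identifier for 31011 of 31054 gene rows. The members and gene lists were chosen with earlier results of these data known. Genes were named by a rule: the 12 highest and 12 lowest per comparison (8 and 8 for EGFP) seen in 20% of cells, the 3 highest, 3 lowest and 3 most abundant of each list, the 2 most abundant of each list of another cell type, and the marker and defining genes. Ptprc and the adipocyte genes Adipoq, Cidec, Fabp4, Plin1 and Pparg were added as checks of identity.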

Additional observations from a re-analysis of the deposited data

How the results depend on the processing

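With 1 library per group, no spread between mice or tumours is known, and values of the 26 keratin-positive Met-1 members rest on few cells. Some of these had much alike counts, and whether all 26 barcodes were separate cells was not tested. No paired analysis was possible because each group has 1 library and cells carry no shared number. The EGFP split at 5 UMIs, the Csn3 split, the keratin-positive set, leaving out the cell with Krt5 UMIs or those with 10 or more leukocyte UMIs, and the look at position were chosen after seeing the data.

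The share of members was 2.53% and 0.890% in Met-1 with a keratin and Epcam minimum of 5 and 20 UMIs, and 9.29% and 8.61% in PyMT with a minimum of 0.2% of UMIs and a C1q limit of 2. The genes apart between the tumours (239 higher, 288 lower in Met-1) became 100 and 119 with a pseudocount of 50, 492 and 436 with a minimum of 20 UMIs, 133 and 74 with 50 UMIs in both groups, and 9 and 35 with cells thinned to 1000 UMIs, which left 205 genes. Those by EGFP (68 and 33) became 25 and 18, 186 and 81, 7 and 22, and 2 and 1 under the same settings. The genes lower with EGFP were 61 with at least 2 UMIs against 0, 99 with groups set at 1000 UMIs, 84 with the split at 5, 95 with that split and under 10 leukocyte UMIs, and 79 with it and without the cell with Krt5 UMIs.

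List medians between the tumours over all 30 Met-1 members moved with 50 UMIs per gene to -2.18 (basal), 0.92 (mesenchymal, 3 genes), -2.10 (G2 and M phase) and -0.89 (adipocyte, 3 genes). With a pseudocount of 1 they were -1.69 (basal) and -2.62 (G2 and M phase). With the mean of per-cell CPM they were 0.66 (mesenchymal), -0.83 (adipocyte) and 2.76 (MHC class II). Without the 4 keratin-negative cells MHC class II turned to -1.80, chemokines moved to -1.30, and Ccl5 (-1.11) and Cd74 (-2.58) turned. By EGFP, the hormone-sensing list turned to 0.42 with 50 UMIs per gene (3 genes) and the basal list to -0.50 with the split at 5, and moved to 0.19 with that split and without the cell with Krt5 UMIs. Krt19 turned under the mean of per-cell CPM, to -0.00085 between the tumours and -0.74 by EGFP.

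Without thinning, the Met-1 and PyMT shares were 73.3% and 64.0% (EGFP), 23.3% and 32.0% (basal keratins), 56.7% and 50.7% (hormone-sensing), 43.3% and 61.3% (caseins) and 36.7% and 66.7% (cycling). At 2000 UMIs the PyMT shares were 14.9% (basal keratins) and 16.2% (hormone-sensing). With 1 more UMI required they were 3.45% in Met-1 and 14.7% in PyMT (caseins) and 0% in PyMT (hormone-sensing). With 20 keratin and Epcam UMIs the Met-1 EGFP share was 5.26%. The cause of the moves was not tested. Of single genes named, 260 values kept their direction and side of the 2-fold limit, 17 fell inside it and 4 turned.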
